A study of Mus musculus with 207 samples.

Results

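Ucn3, the gene for the peptide hormone urocortin 3 (NCBI Gene number 83428), was followed across all 207 cells of a single-cell RNA-seq study of mouse pancreatic islets. It is 1 of the 44448 rows of the deposited expression table, and 1 of the 39725 rows whose number matched a gene symbol. The cells came from islets of male mice, 138 from mice aged 3 months (young) and 69 from mice aged 26 months (old), and the labels name neither a strain, a genotype, a treatment nor the animals. Each cell was caught on a Fluidigm C1 chip, its RNA was copied and amplified there with SMARTer chemistry, and a Nextera XT library was made and sequenced. With no animal named, each age counts as 1 sample, so the ages are described without a test and the SD given is the spread between cells.

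Urocortin 3 belongs to the corticotropin-releasing factor (CRF) family. Beta cells store it with insulin and release it with insulin, it acts on the receptor Crhr2 of neighbouring delta cells, and the somatostatin that these then release restrains further insulin secretion. In the mouse its gene comes on late in the development of the beta cell, and it is widely used as a marker of the mature beta cell.

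Ucn3 lies on the minus strand of chromosome 13 between positions 3940688 and 3945349 of GRCm38.p6, a span of 4662 bases, with 0 genes overlapping it. Its nearest neighbours are Tubal3, 5410 bases away, and the gene model Gm18857, 92602 bases away. The GENCODE annotation gives it 2 exons. Exon 1 (3944841 to 3945349) is all 5′ untranslated, and exon 2 (3940688 to 3941656) holds the whole coding sequence of 492 bases (3941159 to 3941650). The 250 bases before the RefSeq start are shown because several of the transcription factors described further on are homeodomain proteins that bind a TAAT core. Capitals mark TAAT on either strand.

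Ucn3 promoter, chr13:3945350-3945599, minus strand: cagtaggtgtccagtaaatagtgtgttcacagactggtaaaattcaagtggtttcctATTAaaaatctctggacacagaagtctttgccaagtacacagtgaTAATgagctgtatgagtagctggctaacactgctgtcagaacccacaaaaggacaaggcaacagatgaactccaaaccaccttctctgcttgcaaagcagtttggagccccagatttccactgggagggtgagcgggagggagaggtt

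TAAT was searched on both strands and occurred 2 times, from 193 to 190 and from 148 to 145 bases before the start. Of 32851 RefSeq windows of this length, 54.9% held at least 1 match and 30.8% held as many as Ucn3. The E-box CANNTG, the kind of site bound by Neurod1, also occurred 2 times (66.2% of windows held it). TGCTGA, the core of a Maf site, TGACG, the core of a cAMP response element, and TATAAA were searched on both strands with 0 matches, against 16.1%, 17.8% and 12.4% of all windows. These are matches of letters and no binding was measured.

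Ucn3 was above 1 TPM in nearly every cell and varied widely from cell to cell. TPM is a transcript level scaled for transcript length and to the same total in every cell. In young cells the level ran from 2.68 through a median of 388 to 3489 TPM, with a mean of 522 ± 533 TPM (SD, n = 138 cells). In old cells it ran from 0.487 through a median of 688 to 5060.5 TPM, with a mean of 798 ± 849 TPM (SD, n = 69 cells). The ranges of the ages overlapped over almost their whole length. Of the young cells, 138 of 138 reached 1 TPM (100%; 95% Clopper-Pearson interval 97.4 to 100), and of the old cells 68 of 69 did (98.6%; 92.2 to 100.0). These intervals cover counting error only, and the read depth behind a TPM value is unknown.

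**Figure D1:**
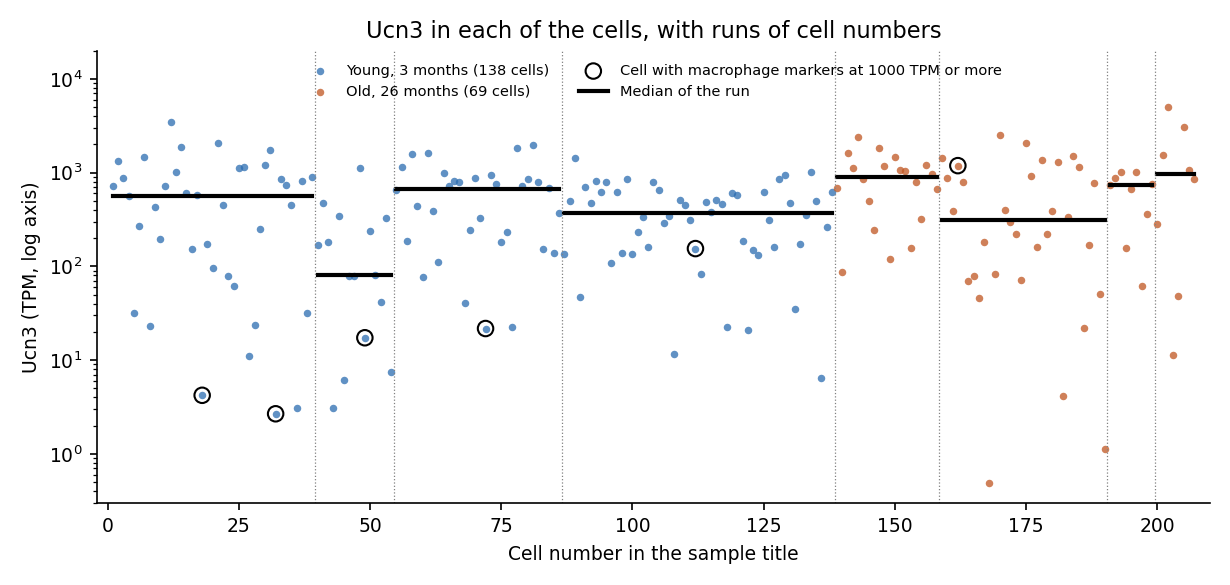
Ucn3 in TPM (log axis) in each cell, by the cell number in the sample title, with young cells in blue and old cells in orange. Black lines are the medians of the runs of cell numbers set apart by dotted lines, and circles mark 6 cells with macrophage markers; the 5 circled young cells lie at 2.68 to 155 TPM.

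The curves of the ages lay close together at low levels and apart at high levels. At least 100 TPM was found in 108 of 138 young cells (78.3%; 70.4 to 84.8) and 55 of 69 old cells (79.7%; 68.3 to 88.4). At least 1000 TPM was found in 18 young cells (13.0%; 7.92 to 19.8) and 23 old cells (33.3%; 22.4 to 45.7). The middle 50% of cells lay between 135 and 779 TPM in young and between 162 and 1118 TPM in old cells. A small number of cells held much of the transcript at both ages: the 14 highest young cells carried 33.2% of all young Ucn3, and the 7 highest old cells carried 33.7% of all old Ucn3.

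**Figure D2:**
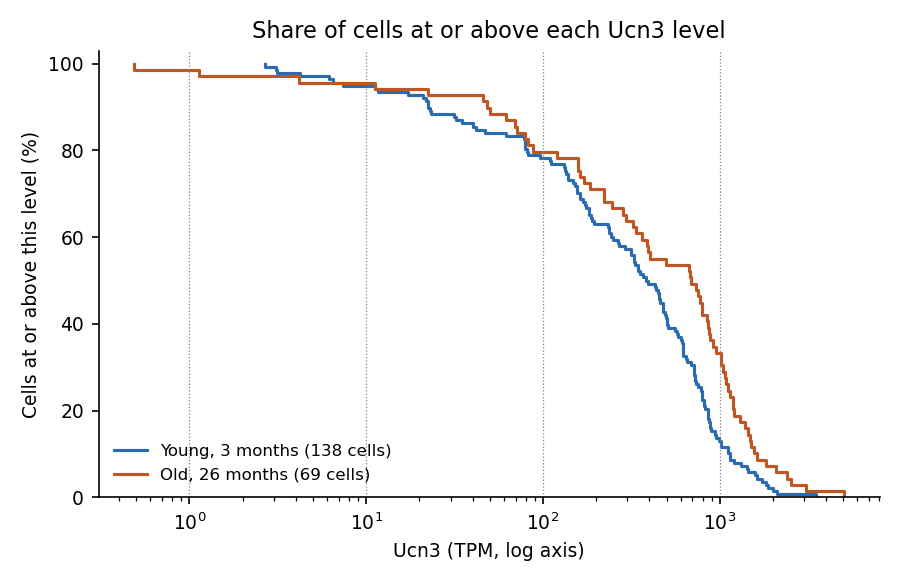
Share of cells (%, vertical axis) at or above each Ucn3 level (TPM, log axis) in 138 young and 69 old cells. The curves run together up to about 100 TPM, where 78.3% of young and 79.7% of old cells remain, and lie apart at 1000 TPM, with 13.0% of young and 33.3% of old cells.

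The mean of old cells was 1.53 times that of young cells, a log2 ratio of 0.61 after a pseudocount of 1 TPM. Of 4735 genes with a mean of at least 10 TPM at either age, 14.1% were at least 1.5-fold higher in old cells and 13.4% had a ratio as high as that of Ucn3 or higher, and the median log2 ratio of all of them was -0.08. Among these genes, of any level from 10 TPM up, a difference of this size was therefore not rare. Genes near the level of Ucn3 were not counted apart. Without the highest cell of each age the log2 ratio was 0.55.

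Ucn3 also differed between stretches of consecutive cell numbers within each age. The cell numbers of the labels fall into 8 runs, placed once the values were known from shifts in detected genes and in mitochondrial and nuclear noncoding RNA, so each run lies within 1 age. Among young cells the run means were 681 TPM (cells 1 to 39), 211 TPM (40 to 54), 647 TPM (55 to 86) and 415.5 TPM (87 to 138). Among old cells they were 917 TPM (139 to 158), 597 TPM (159 to 190), 627 TPM (191 to 199) and 1498 TPM (200 to 207). The lowest old run means lay below the highest young ones, so the runs of the ages overlapped. In order of the medians, the runs stood at 80.8 TPM (40 to 54), 315 TPM (159 to 190), 369 TPM (87 to 138), 560 TPM (1 to 39), 672.5 TPM (55 to 86), 730 TPM (191 to 199), 909 TPM (139 to 158) and 962 TPM (200 to 207). Neighbours in this order were closer than the spread of cells within either run. The lowest of these, cells 40 to 54, also had the fewest detected genes (a median of 2320 against 4291.5 in all young cells), and what part that plays was not tested. In the run of cells 200 to 207, 1 cell held 42.2% of the run's Ucn3, and without this run the log2 ratio of the ages was 0.44. The runs took up 8.40% of the variance of log2(TPM+1) among young cells and 9.45% among old cells, and the rest lay between cells of the same run.

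In both kinds of runs, each pooled, a larger share of old than of young cells reached 1000 TPM. The runs form 2 kinds, low or high in mitochondrial rRNA and tRNA, and each kind holds both ages. In the high kind 7 of 84 young cells (8.33%; 3.42 to 16.4) and 11 of 29 old cells (37.9%; 20.7 to 57.7) reached 1000 TPM, with means of 504 and 827 TPM. In the low kind 11 of 54 young cells (20.4%; 10.6 to 33.5) and 12 of 40 old cells (30.0%; 16.6 to 46.5) did, so that the intervals overlapped, with means of 551 and 777 TPM. The larger runs of the low kind had near equal shares, 10 of 39 young cells (1 to 39, 25.6%) and 8 of 32 old cells (159 to 190, 25.0%). In its smaller runs 1 of 15 young cells (40 to 54) and 4 of 8 old cells (200 to 207) reached 1000 TPM. Cells with little Ucn3 lay mostly in the low kind at both ages: 19 of 54 young and 12 of 40 old cells were below 100 TPM there, against 11 of 84 and 2 of 29 in the high kind. The spread was accordingly wider in the low kind, where the upper quartile was 12.8 times the lower in young and 14.9 times in old cells, against 4.60 and 2.96 times in the high kind.

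Some of the cells with little Ucn3 carried macrophage transcripts. The 9 macrophage markers (among them Lyz2, Cd74, Tyrobp and C1qa) summed to 7727 to 36701 TPM in 5 young cells and to 17173 TPM in 1 old cell, and to no more than 205 TPM in any other cell. Between 7 and 9 of the 9 were detected in each of these cells. Ucn3 in the 5 young cells was 2.68, 4.21, 17.3, 21.7 and 155 TPM, all below the young median, and it was 1189 TPM in the old cell. These cells also held insulin transcript, with Ins2 at 138682 to 459979 TPM. Whether these captures held more than 1 cell was not tested. Without them the young mean was 540 ± 534 TPM (SD, n = 133 cells), the old mean 792 ± 854 TPM (SD, n = 68 cells) and the log2 ratio 0.55. Of the 7 young cells under 10 TPM, 2 carried the macrophage markers, and of the 3 such old cells, 0 did. Over all cells of an age the summed macrophage markers had a rho with Ucn3 of -0.22 (young) and 0.22 (old). Leaving out the 6 cells gave -0.14 and 0.20. Of the other marker lists, again over all cells, the acinar sum had -0.27 and 0.09, and the delta-cell sum had -0.18 and 0.00. The acinar sum was never above 32.1 TPM (young) and 81.6 TPM (old). The 6 cells were set apart by the macrophage markers and not by Ucn3, and they were noticed after the values had been seen.

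Cells at both ends of the Ucn3 range held abundant insulin transcript. The cell with the least Ucn3, old cell 168 at 0.487 TPM, had Ins2 at 501078 TPM, and the cell with the most, old cell 202 at 5060.5 TPM, had Ins2 at 325000 TPM. Ins2 varied far less between cells than Ucn3: the coefficient of variation (SD over mean) was 0.186 in young and 0.175 in old cells for Ins2, 0.457 and 0.488 for Iapp, the gene of the co-secreted peptide amylin, and 1.02 and 1.06 for Ucn3. By mean level Ucn3 ranked 64th of 23093 genes listed above 0 in young cells, between Scg3 (530 TPM) and Rpl35 (518 TPM), and 37th of 20512 in old cells, between Rplp0 (805 TPM) and Tceal9 (764 TPM). The spread of Ucn3 lay within that of the genes nearest to it in mean level, though above their upper quartile in old cells. The 100 nearest genes had means of 287 to 910 TPM in young and 310.5 to 1981.5 TPM in old cells. Their median coefficient of variation was 0.976 in young and 0.926 in old cells, and the upper quartile was 1.11 and 1.05. Of these genes, 43 and 23 varied more than Ucn3.

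The partners of urocortin 3 in its pathway were mostly listed at 0 in these cells. The other ligands of the family, Ucn, Ucn2 and Crh, were listed at 0 in all 207 cells, which by counting alone allows up to 2.64% of young and 5.21% of old cells. Crhbp, which encodes a protein that binds and sequesters CRF, reached 1 TPM in 1 young and 2 old cells. Crhr2, the receptor for urocortin 3, was listed at 0 throughout, and Crhr1, the receptor that prefers CRF, reached 1 TPM in 1 young and 1 old cell. Of the somatostatin receptors, Sstr2, Sstr4 and Sstr5 were listed at 0 in every cell, Sstr1 reached 1 TPM in 2 young cells and 0 old cells, and Sstr3 did so in 69 of 138 young cells (12.5 ± 26.0 TPM, SD, n = 138) and 35 of 69 old cells (8.68 ± 20.2 TPM, SD, n = 69). A listed 0 need not be an absent transcript here, since Gapdh, a glycolytic gene used by every cell, was also listed at 0 in 28 of the 207 cells and Pgk1, another, in 55. No fold was formed against such values.

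Ins1, Ins2 and Iapp reached 1 TPM in 100% of the cells at both ages. Of the 12 beta-cell markers, 11 had a mean of at least 1 TPM at both ages, and Ucn3 itself is among them. The marker below that level was Mafa, the transcription factor of mature beta cells, which reached 1 TPM in only 1 young and 1 old cell. Such a mean can come from few cells and is not particular to beta-cell markers. At both ages 8 of 9 macrophage and 4 of 6 pancreatic polypeptide cell markers had it. Of 12 delta-cell markers 8 (young) and 5 (old) did, and of 10 acinar markers 0 and 1. Other islet hormones were present at low mean levels: Gcg (glucagon) at 86.6 TPM (young) and 30.6 TPM (old), Sst (somatostatin) at 71.1 and 207 TPM, Ppy (pancreatic polypeptide) at 42.9 and 87.5 TPM, and Pyy (peptide YY) at 24.2 and 95.4 TPM. Leaving out the 7 old cells in which any of them reached 1000 TPM (0 young cells did) gave a log2 ratio of 0.69 for Ucn3.

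Few genes rose and fell with Ucn3 from cell to cell, and none did so strongly. For 1899 genes with a mean of at least 10 TPM and at least 1 TPM in 50% of cells at both ages, Spearman's rho with Ucn3 was computed over the 138 young and, separately, the 69 old cells. All genes of a cell share its library, its depth and the fixed TPM total, so a weak rho is a description and no finding about a gene. The median rho was 0.06 in young and 0.08 in old cells, 90% of genes lay between -0.11 and 0.21 in young and between -0.14 and 0.28 in old cells, and the extremes were 0.36 (Tmsb15b1) and -0.35 (Gm11942) in young and 0.45 (Actr2) and -0.35 (As3mt) in old cells. A rho of at least 0.3 was reached by 3 genes in young cells, 60 in old cells and 0 in both. At least 0.2 at both ages was reached by 31 genes. A rho of -0.2 or lower at both ages was found for 1 gene, Rpl39-ps. These counts depended on the scaling: with TPM rescaled without insulin and mitochondrial genes there were 10 genes at 0.2 or above and 10 at -0.2 or below. The young and old values of a gene come from different cells, and over the 1899 genes they had a Pearson correlation of 0.26, as a description across genes that are not independent. The 25 genes with the highest rho in young cells (0.27 to 0.36) had a median rho of 0.17 in old cells, and 23 of the 25 were above 0 there, against 72.8% of all 1899. The 25 lowest in young cells had a median of -0.10 in old cells, and 16 of the 25 were below 0 there, against 27.2% of all.

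**Figure D3:**
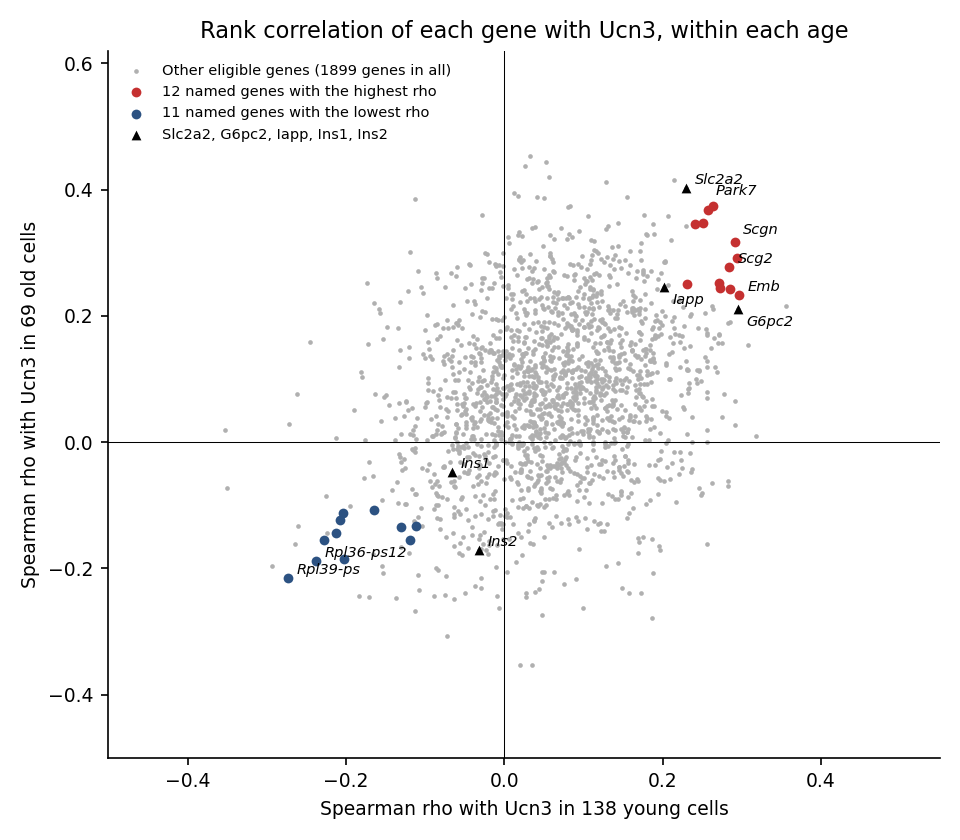
Spearman rho with Ucn3 in 138 young cells (horizontal) and 69 old cells (vertical) for 1899 genes, each a point. Red points are the 12 named genes with the highest values (for example Scgn at 0.29 and 0.32), blue points the 11 with the lowest (Rpl36-ps12 at -0.24 and -0.19), and triangles mark Slc2a2, G6pc2, Iapp, Ins1 and Ins2; most points crowd around the origin.

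The 12 named genes highest with Ucn3 included granule and metabolic genes. Scgn encodes secretagogin, a calcium sensor of the secretory pathway; it ran from 0.264 through a median of 125 to 1589 TPM in young cells and from 0 through 121 to 1367 TPM in old cells, with rho values of 0.29 and 0.32. Scgn had a positive rho in 6 of the 8 runs and one of -0.75 in the 15 cells 40 to 54. Scg2, the granule protein secretogranin II, ran from 53.5 through 1387 to 6324 TPM in young and from 61.2 through 1458 to 8527 TPM in old cells, with rho 0.28 at both ages and a positive rho in 7 of the 8 runs, with -0.08 in cells 191 to 199. Without cells 139 to 158 the weaker rho of Scg2 was 0.14. Hadh, a mitochondrial enzyme of fatty acid oxidation that restrains insulin secretion, had rho 0.27 and 0.25, and its weaker rho was 0.080 without cells 159 to 190. Mpc1, a subunit of the mitochondrial pyruvate carrier, had 0.26 and 0.37, and Ndufb4 and Ndufb3, subunits of respiratory complex I, had 0.27 and 0.24, and 0.23 and 0.25. Immp1l, a mitochondrial inner membrane peptidase, had 0.29 at both ages, but within runs it went from 0.62 in cells 1 to 39 to -0.33 in cells 191 to 199, and without cells 1 to 39 its weaker rho was 0.13. The others were Park7 (0.26 and 0.37), a protein of oxidative stress defence, Atp6v1d (0.25 and 0.35), a subunit of the vacuolar proton pump, Psmc5 (0.29 and 0.24), a proteasome ATPase, Pts (0.24 and 0.35), an enzyme of tetrahydrobiopterin synthesis, and Emb (0.30 and 0.23), the membrane glycoprotein embigin.

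The 11 lowest genes named here were all genes or pseudogenes of cytosolic ribosomal proteins. Rpl36-ps12 had rho -0.24 in young and -0.19 in old cells and was below 0 in 8 of 8 runs. Rpl39-ps had -0.27 and -0.22, but without the old cells 159 to 190 its weaker rho was -0.011. The others included Rps15a with -0.20 and -0.19, Rpl36 -0.23 and -0.15, Rpl38 -0.21 and -0.14 and Rpl39 -0.20 and -0.11. Ribosomal genes and their pseudogenes are close copies that can share reads, so their separate values are uncertain. Of all 73 eligible ribosomal protein genes, 31 were below 0 at both ages (42.5%, against 11.0% of the 1899 genes) and 17 above 0 at both, with a median rho of -0.03 and -0.01; this list was chosen after the named genes had been seen. Without the old cells 159 to 190, 4 of the 11 had a rho above 0 in old cells.

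**Figure D4:**
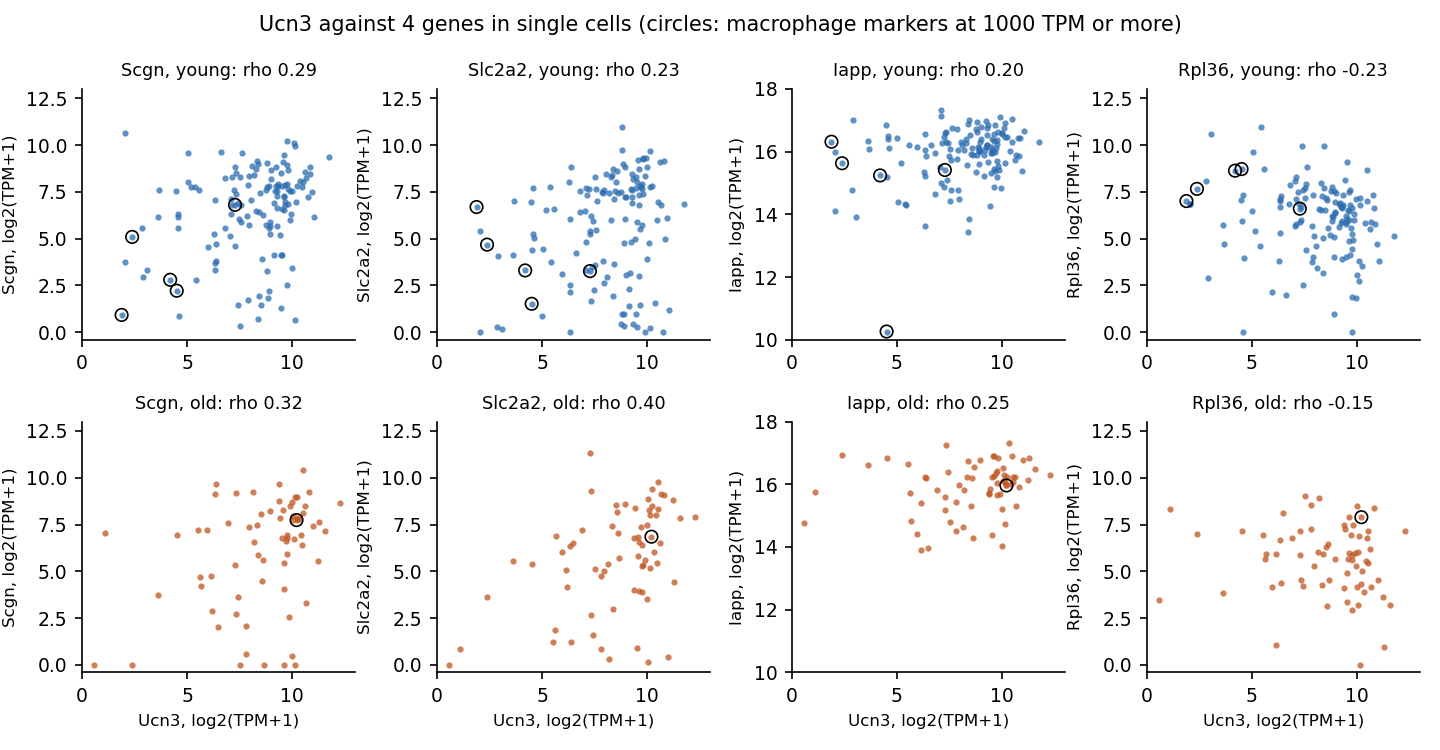
Scgn, Slc2a2, Iapp and Rpl36 (vertical, log2(TPM+1)) against Ucn3 (horizontal, log2(TPM+1)) in single cells, young above and old below. Circles mark the 6 cells with macrophage markers; the clouds are wide in every panel, with rho between -0.23 and 0.40.

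Among the 24 listed genes of beta-cell maturity, 19 were eligible and 14 of them had a rho above 0 at both ages (73.7%, against 55.8% of the 1899 genes), with a median of 0.18 in young and 0.13 in old cells. Slc2a2, the glucose transporter GLUT2, ran from 0 through a median of 78.5 to 2031 TPM in young and from 0 through 65.3 to 2517 TPM in old cells, with rho 0.23 and 0.40. G6pc2, the islet glucose-6-phosphatase that sets the glucose threshold, ran from 16.3 through 866 to 5438 TPM in young and from 4.49 through 798 to 3009 TPM in old cells, with rho 0.30 and 0.21. The ranges of Slc2a2 and G6pc2 overlapped between the ages over most of their length. Iapp had rho 0.20 and 0.25. Slc30a8, the granule zinc transporter, had 0.18 and 0.26, and Pcsk1, a proinsulin convertase, had 0.23 and 0.13. The members below 0 at both ages were the insulin genes themselves, Ins2 at -0.03 and -0.17 and Ins1 at -0.07 and -0.05. Their sign depended on the measure: the Pearson correlation of log2(TPM+1) was 0.01 and 0.01 for Ins2 and 0.04 and 0.09 for Ins1. Abcc8, a subunit of the ATP-sensitive potassium channel, had 0.26 in young and -0.06 in old cells. With log2(TPM+1) centred on each run, the count above 0 at both ages was 14 of 19, against 40.0% of the 1899 genes. These were not the same 14 members: Ins2 came in (0.07 and 0.03) and Cltrn went out (-0.002 and 0.26).

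Of the 20 listed beta-cell transcription factors, 7 were eligible and 5 had a rho above 0 at both ages, against 55.8% of all eligible genes. Isl1 had 0.17 and 0.21 and Pax6 0.19 and 0.17; both are homeodomain factors of islet cells. Neurod1, which binds E-boxes, had 0.12 and -0.10, and Nkx2-2 -0.01 and -0.16. Pdx1, which reached 1 TPM in 43.5% of cells at each age, had 0.10 and -0.05, and Nkx6-1 had 0.01 and 0.33, but both missed the limit on level or share. Of the 16 listed genes of immature or dedifferentiated endocrine cells, 0 were eligible.

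Of the 21 eligible genes of granule cargo and prohormone processing, 15 had a rho above 0 at both ages (71.4%, against 55.8% of all). Their median was 0.07 and 0.12, against 0.06 and 0.08 for all genes. Centred on runs, 12 of the 21 were above 0 at both ages, against 40.0% of all. Iapp, Slc30a8, Pcsk1 and Chgb, which are among the 15, are also maturity genes, so the lists are not separate. Scg3, a granule sorting protein, had 0.12 and 0.30, while Ptprn, a granule membrane protein, had -0.08 and -0.20. Of the 16 eligible genes of the unfolded protein response and ER folding, 9 were above 0 at both ages, near the share of all genes, and Canx (calnexin), with 0.16 and 0.39, was the highest of them by the mean of the ages. The 5 eligible immediate early genes had a median of 0.20 in young cells and of -0.16 in old cells; Fos had 0.25 and -0.08 and Jun 0.16 and -0.24. The difference between the ages was not tested. Of the 4 eligible genes of glucose sensing and secretion coupling, 2 were above 0 at both ages, Slc2a2 and Gjd2, the connexin that couples beta cells (0.16 and 0.30). All but Gjd2 are also on the list of maturity genes. The 13 coding genes of the mitochondrial genome had a median of 0.00 in young and -0.15 in old cells, with mt-Cytb, cytochrome b of complex III, at 0.05 and -0.27. In lists chosen after the named genes had been seen, 45 of 75 nuclear genes of the respiratory chain and ATP synthase (60.0%) and 15 of 27 of the proteasome (55.6%) were above 0 at both ages, near the 55.8% of all genes, and 13 of 16 of the vacuolar proton pump were (81.2%). Of the other islet hormones, Sst had -0.21 and 0.01, Gcg 0.14 and -0.19, Ppy -0.10 and 0.13 and Pyy -0.12 and 0.13, and 0 of the 4 had the same sign at both ages.

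**Figure D5:**
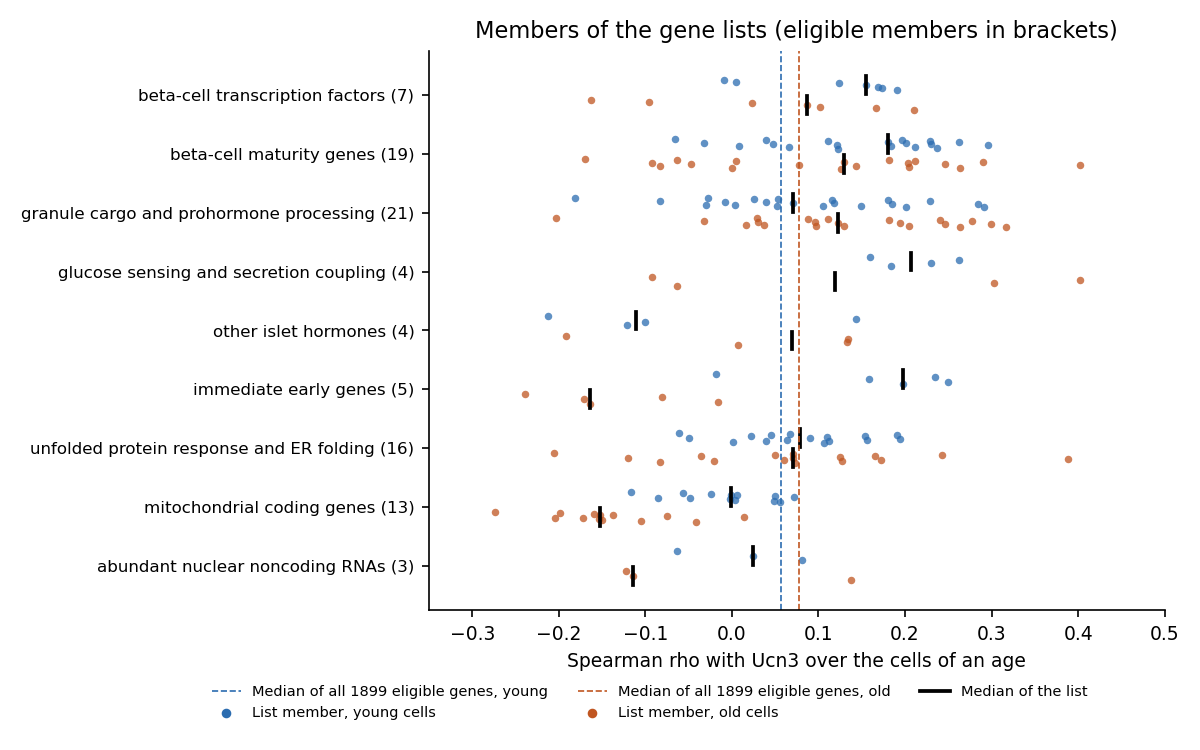
Spearman rho with Ucn3 of each eligible member of the gene lists, in young (blue) and old (orange) cells, with the median of each list as a black bar and the medians of all 1899 genes (0.06 young, 0.08 old) as dashed lines. Maturity genes lie mostly to the right of the dashed lines, and mitochondrial coding genes in old cells to the left.

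The number of detected genes in a cell, the only sign of depth, had rho 0.31 with Ucn3 in old cells and 0.10 in young cells. The insulin share of TPM had rho -0.05 in young and -0.17 in old cells, and the mitochondrial coding share -0.02 and -0.19. Given the detected genes, 10 in place of 31 genes had a partial rho of at least 0.2 at both ages. With each run centred on its own mean, 7 genes had a correlation of log2(TPM+1) of at least 0.2 at both ages. Slc2a2 then had 0.08 in young and 0.33 in old cells, Scgn 0.15 and 0.24, G6pc2 0.20 and 0.24 and Iapp 0.30 and 0.26. Other settings lowered the weaker rho: for G6pc2 it was 0.084 with TPM rescaled without insulin and mitochondrial genes and 0.059 given detected genes, and for Iapp it was 0.056 with rescaled TPM and 0.084 without cells 40 to 54. For Slc2a2 it was 0.11 without cells 55 to 86. The parts of depth and run in these correlations were not tested.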

How the data were processed

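A single table of TPM values, deposited by the authors, holds 207 cell columns whose names equal the sample titles, and 0 columns were unused. Each column sums to 1000000, so read depth is unknown and a gain in an abundant transcript lowers the others. Build GRCm38 (mm10), CASAVA 1.8.2 and FastQC are named per the submitters' processing notes; no source used here names an aligner, a counter or an annotation (not given in the sources used here). Rows are NCBI Gene numbers, matched to symbols and coordinates in a RefSeq table of GRCm38.p6. The promoter window is RefSeq sequence of that build, without the bases after the start.

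Age labels define the groups, no cell was left out, no doublet caller was run and no clusters were made. Detection means TPM 1 or above. Intervals are 95% Clopper-Pearson. Runs are least-squares change points within an age on 4 measures (shortest run 8 cells, penalty multiplier 1). Named genes are the 12 highest and 12 lowest by the weaker rho of the ages with the same sign after centring on runs, the 2 highest and 2 lowest of each list, and genes fixed by name; some genes named by this rule are not reported here. Members, lists and rules were chosen with earlier results of these data known. The rank correlation and run boundaries were tested on simulated data. Alternatives changed the pseudocount, scaling, filters, correlation and cells. Python 3.11.15, numpy 2.4.6, pandas 2.3.3, scipy 1.17.1 and matplotlib 3.10.9 were used.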

Additional observations from a re-analysis of the deposited data

How the results depend on the processing

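The log2 ratio of old over young Ucn3 was 0.61 and stayed above 0 in every alternative, each of which pooled more than 1 run of each age. Single runs of the same kind could go the other way. In the low kind the mean was 681 TPM in young cells 1 to 39 and 597 TPM in old cells 159 to 190. The log2 ratio was 0.83 from medians, 0.50 within the low and 0.71 within the high kind of runs. With each run weighted equally (chosen after seeing the data) it was 0.89. Without a run it was 0.80 (cells 1 to 39), 0.51 (40 to 54), 0.72 (55 to 86), 0.44 (87 to 138), 0.90 (159 to 190) and 0.44 (200 to 207). The share of cells with Ucn3 was 94.9% of young cells at 10 TPM and 78.3% at 100 TPM, and 79.7% of old cells at 100 TPM; without cells 159 to 190, which hold the lowest cell, it was 100% of old cells. The count of genes at 0.2 or above at both ages was 31. It was 7 centred on runs, 10 with TPM rescaled without insulin and mitochondrial genes, 10 given detected genes, 53 with a mean of 1 TPM in 25% of cells and 69 with no filter (more genes entered). Without a run (chosen after seeing the data) it was 68 (cells 1 to 39), 9 (40 to 54) and 81 (87 to 138). It thus moved both ways with the run left out, and the part of any run in it was not tested. The count at -0.2 or below was 1, and ran from 1 to 10, with 10 after rescaling, 5 given detected genes and 10 with no filter. The old-cell median of the 25 genes highest in young cells was 0.17, against 0.078 for all genes. It was 0.044 with rescaled TPM (all genes 0.015), 0.059 given detected genes (all genes -0.0056) and 0.071 centred on runs (all genes 0.059). Among the lowest named genes, the weaker rho turned positive without cells 159 to 190 for Rpl17-ps4 (0.18), Rpl36a-ps1 (0.23), Rpl39 (0.068) and Rps19-ps7 (0.038). Without those cells it was -0.011 for Rpl39-ps, 0.14 for Mpc1 and 0.10 for Emb. Of 390 values of 26 named genes under 15 alternatives, 368 moved by no more than 0.1. Each value is the weaker rho of the ages, so leaving out a run of the other age often could not change it. The rho values were small, so a move of this size can take up most of one. For Rpl39 the weaker rho was -0.11, and -0.024 centred on runs, which still counts among the 368. The causes were not tested. Without cells with macrophage markers (chosen after seeing the data) the ratio was 0.55 and the count 33.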
